A study of Homo sapiens with 6 samples.

Results

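The unfolded protein response and the amino acid response were described through 10 genes, all of which were found among the 16418 genes used from a table of 6 human breast cancer cell lines. The members were taken by name from a list, not by a cut on their levels. That list was chosen with earlier results of these data known. By the labels, ductal carcinoma gave T47D and UACC-812, adenocarcinoma SKBR3 and MDA-MB-415, a metastatic carcinoma MDA-MB-453, and a breast carcinoma CAL51, all labelled epithelial in morphology, and none was given a drug or a stress agent according to the labels. RNA of each line was sequenced as single-end reads from 1 mRNA library, so no difference between lines carries a replicate error and no test of one was possible. UACC-812 was grown in Leibovitz's L-15 medium with 20% fetal bovine serum, EGF at 20 ng/ml and 2 mM glutamine. MDA-MB-415 was grown in L-15 with 15% serum, 2 mM glutamine, and insulin and glutathione at 10 mcg/ml each. SKBR3 was grown in RPMI with 20% serum, T47D and CAL51 in RPMI with 10% serum, and MDA-MB-453 in IMEM with 20% serum. Medium, serum and line cannot be told apart.

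Secreted and membrane proteins fold in the endoplasmic reticulum (ER). When unfolded protein builds up there, the sensors IRE1, ATF6 and PERK raise the transcription of ER chaperones and, through phosphorylation of the initiation factor eIF2alpha, the translation of the transcription factor ATF4. Lack of amino acids reaches the same factor through the kinase GCN2, so ATF4 targets answer to either stress. The first 5, *HSPA5*, *HSP90B1*, *DNAJB9*, *SDF2L1* and *CRELD2*, encode chaperones and folding factors of the ER, here called the ER lumenal genes. The other 5, *ATF4*, *DDIT3*, *TRIB3*, *CHAC1* and *ASNS*, encode ATF4 itself and genes it is known to raise, here called the ATF4 arm.

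DNA elements known from these pathways were searched in the promoters. The ER stress response element, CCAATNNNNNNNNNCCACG, is known to be bound by NF-Y together with ATF6, and the shorter ATTGGNCCACG is known as ERSE-II. The core TGATGNAA belongs to elements bound by ATF4 with C/EBP factors. Each was searched on both strands from 250 bases before to 50 bases after the start of the 10 members and of 27305 genes in all, in RefSeq sequence of the build GRCh38.p14. The first was present for *HSPA5*, *HSP90B1* and *CRELD2*, 3 of 10 members, and in 0.0806% of all promoters. ERSE-II was present for *SDF2L1* and in 0.0549% of all, and TGATGNAA for *CHAC1* and *ASNS* and in 3.67% of all. The letters TGACGTGG, the core of another ER stress element, were in no member's window and in 0.795% of all. None of the 4 patterns was in the windows of *DNAJB9*, *ATF4*, *DDIT3* and *TRIB3*. A match of letters is a description and not evidence of binding. The elements are known from these same pathways, so a higher share among the members was not a test. ERSE-II holds CCACG with CCAAT on the opposite strand, read as ATTGG, and at a closer spacing. The longer and the shorter pattern were therefore counted apart.

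The promoters of *HSPA5* and *CRELD2* are shown because both hold the ER stress response element while their levels ran in different orders over the lines. Those of *CHAC1* and *ASNS* are shown because both hold TGATGNAA while *CHAC1* varied most among the 10 members and *ASNS* was among those that varied least. Capitals mark the element, which lies from -66 to -48 in *HSPA5* and from -80 to -62, on the opposite strand, in *CRELD2*. It lies from -209 to -202, on the opposite strand, in *CHAC1* and from -68 to -61 in *ASNS*, with positions counted from the start of transcription.
HSPA5 (chr9:125241294-125241593, minus strand): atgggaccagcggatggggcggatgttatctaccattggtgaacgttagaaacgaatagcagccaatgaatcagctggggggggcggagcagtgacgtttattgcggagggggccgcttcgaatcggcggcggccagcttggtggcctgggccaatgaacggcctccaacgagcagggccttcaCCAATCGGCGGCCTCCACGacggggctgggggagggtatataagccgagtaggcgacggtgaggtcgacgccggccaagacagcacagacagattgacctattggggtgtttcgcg
CRELD2 (chr22:49918384-49918683, plus strand): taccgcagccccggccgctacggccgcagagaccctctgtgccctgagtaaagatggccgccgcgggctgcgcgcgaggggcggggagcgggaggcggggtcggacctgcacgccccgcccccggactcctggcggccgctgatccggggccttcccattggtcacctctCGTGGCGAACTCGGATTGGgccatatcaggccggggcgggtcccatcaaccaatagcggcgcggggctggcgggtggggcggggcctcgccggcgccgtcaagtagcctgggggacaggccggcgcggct
CHAC1 (chr15:40953221-40953520, plus strand): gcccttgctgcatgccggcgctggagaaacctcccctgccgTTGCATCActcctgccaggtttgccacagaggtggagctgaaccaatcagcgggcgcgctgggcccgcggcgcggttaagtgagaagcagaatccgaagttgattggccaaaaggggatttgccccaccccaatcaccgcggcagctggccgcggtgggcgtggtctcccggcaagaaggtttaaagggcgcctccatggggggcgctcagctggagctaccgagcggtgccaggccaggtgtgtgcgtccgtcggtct
ASNS (chr7:97872359-97872658, minus strand): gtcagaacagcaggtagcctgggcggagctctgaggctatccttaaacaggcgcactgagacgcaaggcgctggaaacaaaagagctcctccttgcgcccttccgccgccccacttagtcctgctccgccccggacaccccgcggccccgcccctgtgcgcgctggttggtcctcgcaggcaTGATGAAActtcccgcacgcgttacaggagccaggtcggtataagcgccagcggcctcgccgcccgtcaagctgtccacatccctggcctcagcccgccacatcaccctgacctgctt

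*HSP90B1* held the ER stress response element at 2 places and *SDF2L1* held ERSE-II at 1, and these sites are shown as they read on the strand of the gene, to compare with the element of *HSPA5*.
HSPA5, -66 to -48: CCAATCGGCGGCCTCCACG
HSP90B1, -194 to -176: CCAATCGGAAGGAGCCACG
HSP90B1, -89 to -71, reversed: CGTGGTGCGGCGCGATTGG
CRELD2, -80 to -62, reversed: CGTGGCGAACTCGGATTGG
SDF2L1, -188 to -178, reversed: CGTGGACCAAT

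Levels are deposited RPKM (reads per kilobase of exon and scaled to library size), read here as summed over the exons of a gene. Such sums grow with exon number, so a level is compared between lines for 1 gene and never between genes. Library depth, worked out from how low levels are spaced, was 25610000 to 36490000 reads. A gene's deviation is its log2(level + 1) in 1 line minus the median over the 5 other lines, taken relative to the same quantity over all genes, which lay between -0.46 in SKBR3 and 0.23 in CAL51. A gene is called above or below when its deviation reaches 2-fold, or 1 log2 unit, and these calls carry no test. Epithelial marker levels were well above 0 in every line, with summed levels of 5 genes from 14613 in MDA-MB-453 to 97942 in UACC-812, but *CDH1* stood at 0.823 in SKBR3. Of 4 measured fibroblast markers the summed level was 9.38 to 214, with *DCN* listed at 0 in all lines except MDA-MB-415, at 11.1. Of the leukocyte markers, *PTPRC* was at most 18.8 and *CD3E* was listed at 0 in all lines except SKBR3, at 8.40. Their part in the results was not tested. In bulk RNA, fewer cells that express a gene and less RNA per cell cannot be told apart.

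**Figure D1:**
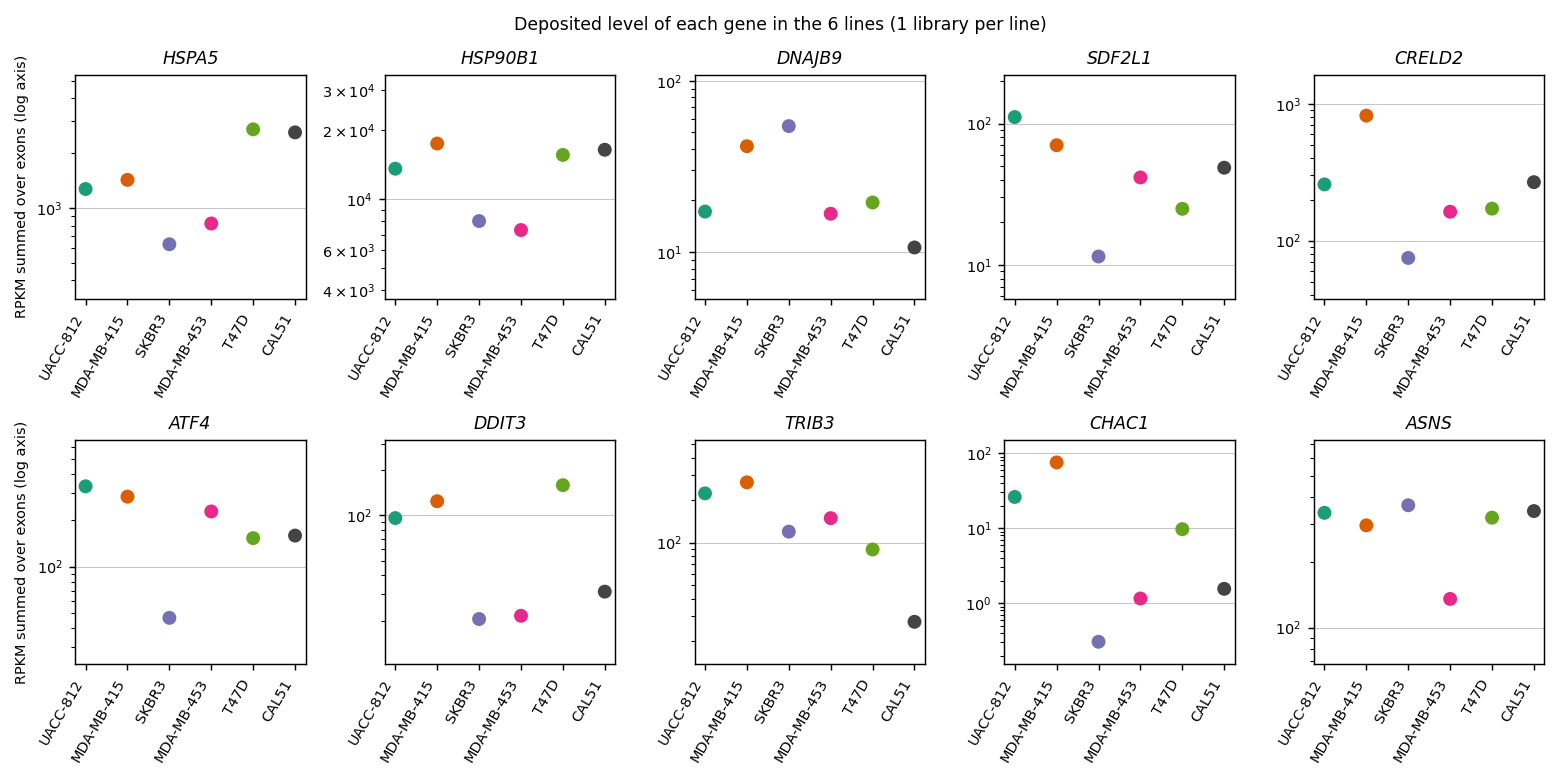
Level of each gene in RPKM summed over exons, on a log axis with its own range in each panel, against the 6 lines, with 1 point per line for its 1 library. *CHAC1* has its lowest level, 0.306, in SKBR3 and its highest, 75.3, in MDA-MB-415, and *ASNS* stays between 295 and 365 in every line except MDA-MB-453, at 135.

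*HSPA5* encodes BiP, the main ER chaperone of the Hsp70 family, which also holds the stress sensors inactive. From the highest line to the lowest, its level was 2702 (T47D), 2600 (CAL51), 1426 (MDA-MB-415), 1270 (UACC-812), 821 (MDA-MB-453) and 632 (SKBR3). T47D and CAL51 stood together at the top, 1.82-fold above the next line, and SKBR3 at the bottom, where MDA-MB-453 took its place after TMM or upper-quartile scaling. No deviation reached 2-fold, but that in T47D, 0.997 log2 units, did so in 5 of the 7 other settings that keep all lines. It ran from 0.91 to 1.34 with 1 line left out of the reference. Without the all-gene correction 2-fold was also reached in SKBR3 (-1.17) and CAL51 (1.03), and without UACC-812 in MDA-MB-453 (-1.23).

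*HSP90B1* encodes GRP94, the ER member of the Hsp90 family. In falling order, its level was 17502 (MDA-MB-415), 16444 (CAL51), 15605 (T47D), 13592 (UACC-812), 8034 (SKBR3) and 7340 (MDA-MB-453). As deposited, the 4 highest lines lay close together and SKBR3 and MDA-MB-453 were low, the same lines that were lowest for *HSPA5*. After TMM scaling SKBR3 stood above UACC-812, and the deviation in SKBR3 went from -0.50 to -0.09. *HSP90B1* had the narrowest range of the 10 genes, 1.25 log2 units, against a median of 2.37 over all genes. Its deviation of -1.09 in MDA-MB-453 did not reach 2-fold after TMM or upper-quartile scaling, against the mean of the others, or without MDA-MB-415 or CAL51, and was -0.82 at its smallest, after TMM scaling. RefSeq lists 2 pseudogenes of *HSP90B1*, 1 of *HSPA5*, 4 of *ATF4* and 5 of *ASNS*, and reads shared with them cannot be separated here.

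*DNAJB9* encodes ERdj4, a co-chaperone of BiP and a known target of the transcription factor XBP1. Ordered by line, its level was 54.3 (SKBR3), 41.5 (MDA-MB-415), 19.5 (T47D), 17.2 (UACC-812), 16.7 (MDA-MB-453) and 10.6 (CAL51). SKBR3 was the lowest line for 6 of the 10 genes as deposited, and for 29.9% of all genes at a level above 0. After TMM or upper-quartile scaling, *HSPA5* and *DDIT3* were lowest in MDA-MB-453 instead. For *DNAJB9* SKBR3 was the highest line, and SKBR3 and MDA-MB-415 stood 2.13-fold or more above the 4 others. Their deviations were 2.06 (SKBR3) and 1.23 (MDA-MB-415). That of -1.05 in CAL51 did not reach 2-fold with a pseudocount of 5, after TMM scaling, without the all-gene correction, or without MDA-MB-415 or SKBR3, and was -0.81 at its smallest, without that correction.

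*SDF2L1* encodes an ER protein that works with the co-chaperone DNAJB11. From the highest line to the lowest, its level was 111 (UACC-812), 70.2 (MDA-MB-415), 48.7 (CAL51), 41.5 (MDA-MB-453), 24.9 (T47D) and 11.5 (SKBR3). UACC-812 was highest (deviation 1.21), and the widest step as deposited, 2.17-fold, lay between T47D and SKBR3 (-1.54). That step includes the low shift of SKBR3 over all genes. The range narrowed from 3.17 log2 units to 2.41 after TMM scaling. SKBR3 stayed lowest, with a deviation of -1.21 after that scaling. The deviation of -1.03 in T47D was below 2-fold in 5 of the 7 other settings that keep all lines, and without UACC-812 or MDA-MB-415, being -0.78 at its smallest, after upper-quartile scaling.

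*CRELD2* encodes an ER-resident factor that acts on disulfide bonds and is raised by ER stress. In falling order, its level was 823 (MDA-MB-415), 268 (CAL51), 258 (UACC-812), 172 (T47D), 163 (MDA-MB-453) and 74.7 (SKBR3). MDA-MB-415 stood 3.07-fold above the next line, with a deviation of 2.26. SKBR3 was lowest, as deposited and after TMM or upper-quartile scaling. The deviation of -1.32 in SKBR3 fell short of 2-fold after TMM scaling (-0.89) and without MDA-MB-415 (-0.97).

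*ATF4* encodes the transcription factor at the head of the arm, which is controlled mainly by translation, so its mRNA level does not give its activity. Ordered by line, its level was 331 (UACC-812), 284 (MDA-MB-415), 228 (MDA-MB-453), 159 (CAL51), 153 (T47D) and 46.6 (SKBR3). As deposited, SKBR3 stood 3.28-fold below the next line (deviation -1.81) and the 5 others lay within a continuous run. That step is of unscaled levels and includes the low shift of SKBR3 over all genes. The range narrowed from 2.80 log2 units to 2.09 after TMM and 2.21 after upper-quartile scaling, with SKBR3 still lowest. UACC-812 was highest as deposited and after upper-quartile scaling, and MDA-MB-415 after TMM scaling.

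*DDIT3* encodes CHOP, a transcription factor of the C/EBP family that promotes cell death under long stress. From the highest line to the lowest, its level was 159 (T47D), 124 (MDA-MB-415), 96.1 (UACC-812), 31.2 (CAL51), 21.6 (MDA-MB-453) and 20.5 (SKBR3). The lines fell into 3 high and 3 low ones, with 3.08-fold between UACC-812 and CAL51. All 6 deviations reached 2-fold, at 2.22 (T47D), 1.97 (MDA-MB-415) and 1.40 (UACC-812) on the high side and -1.71 (SKBR3), -1.82 (CAL51) and -2.10 (MDA-MB-453) on the low side. With such a split the median of the others sits at the edge of a cluster, and leaving a line out moves it. The deviation in UACC-812 was 0.42 without MDA-MB-453 and also under 2-fold without SKBR3 or CAL51, and under 2-fold against the mean of the others. Without MDA-MB-415 it was -0.86 in SKBR3 and -0.76 in CAL51, and both were under 2-fold without T47D too. The smallest values of the calls that held were 1.23 in MDA-MB-415 and 1.43 in T47D, without MDA-MB-453, and -1.31 in MDA-MB-453, without MDA-MB-415. *DDIT3* overlaps *MARS*, the methionyl-tRNA synthetase gene, and the strand setting of the counting is not given in the sources used here. *MARS* was also highest in T47D, at 1226, and lowest in SKBR3, at 360, with deviations of 0.35 and -0.92, and its part in the *DDIT3* values was not tested.

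*TRIB3* encodes a pseudokinase that is raised by ATF4 and CHOP and binds ATF4 in turn. In falling order, its level was 267 (MDA-MB-415), 223 (UACC-812), 149 (MDA-MB-453), 120 (SKBR3), 89.4 (T47D) and 27.5 (CAL51). CAL51 stood 3.25-fold below the next line, with a deviation of -2.63, and the other 5 lines formed a run. The deviation of 1.16 in MDA-MB-415 was under 2-fold after TMM or upper-quartile scaling and without CAL51 (0.99).

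*CHAC1* encodes an enzyme that breaks down glutathione and is known as a target of ATF4. Ordered by line, its level was 75.3 (MDA-MB-415), 26.1 (UACC-812), 9.69 (T47D), 1.55 (CAL51), 1.15 (MDA-MB-453) and 0.306 (SKBR3). The same lines were high and low as for *DDIT3*, but over a wider range of 5.87 log2 units, wider than in 90.5% of all genes, while genes within 1 log2 unit of its mean level had a median range of 4.02. The deviation was 4.91 in MDA-MB-415, 3.22 in UACC-812, 1.98 in T47D, -2.30 in CAL51, -2.31 in MDA-MB-453 and -2.57 in SKBR3. In T47D it was 0.27 without MDA-MB-453 and also under 2-fold without SKBR3 or CAL51, and when the others were averaged. Without MDA-MB-453 it was 3.93 in MDA-MB-415 and 2.18 in UACC-812, and it was -1.49 in SKBR3 and -1.13 in CAL51 without MDA-MB-415. In MDA-MB-453 it was -1.28 without UACC-812. The size of these values depends on the pseudocount. With 5 in place of 1 they were 3.62 in MDA-MB-415, 2.12 in UACC-812 and -1.16 in SKBR3, and with 0.1 they were 5.52, 3.77 and -4.03. The lowest levels rest on few reads. If all fell in the longest exon of 1147 bp in the GENCODE annotation, 0.306 in SKBR3 would be 11.8 reads, 1.15 in MDA-MB-453 44.9 and 1.55 in CAL51 65.0, and reads in shorter exons would make them fewer.

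*ASNS* encodes asparagine synthetase, the classic gene of the amino acid response. From the highest line to the lowest, its level was 365 (SKBR3), 344 (CAL51), 337 (UACC-812), 320 (T47D), 295 (MDA-MB-415) and 135 (MDA-MB-453). The 5 other lines lay within 1.24-fold of each other while MDA-MB-453 stood 2.18-fold below the lowest of them, with a deviation of -1.31. In MDA-MB-415, where *CHAC1* and *TRIB3* were highest, *ASNS* deviated by -0.18.

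**Figure D2:**
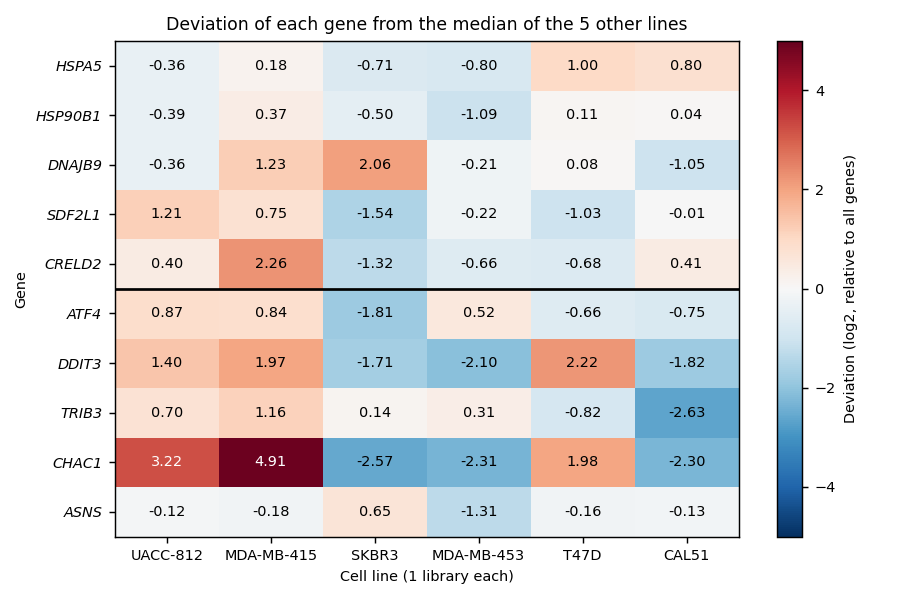
Deviation of each gene (rows, ER lumenal genes above the line and ATF4 arm below) in each of the 6 lines (columns), in log2 units relative to all genes, from 1 library per line. The widest values are those of *CHAC1*, with a lowest deviation of -2.57 (SKBR3) and a highest of 4.91 (MDA-MB-415), and *ASNS* reaches 2-fold in MDA-MB-453 alone, at -1.31.

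With no replicates, no neighbours in these orders can be said to differ, and 31 of the 50 steps between neighbouring lines, over the 10 genes, were under 1.5-fold. A range of 4-fold or more was found for 8 of the 10 genes and for 61.4% of all genes, so wide variation was not particular to them. The highest line was the same for 9 of the 10 genes after TMM scaling and for 10 after upper-quartile scaling, and the lowest line for 8 after either.

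Counted by line, MDA-MB-415 had the most calls above, and neither it nor UACC-812 had any below. In MDA-MB-415, *DNAJB9*, *CRELD2*, *DDIT3*, *TRIB3* and *CHAC1* were above, 5 of 10 members against 19.9% of all genes, and none was below against 18.7%. In UACC-812, *SDF2L1*, *DDIT3* and *CHAC1* were above, 3 of 10 against 20.6%, and none was below against 13.5%, both near the background. The lines SKBR3, MDA-MB-453 and CAL51 had more calls below than above. In SKBR3, *SDF2L1*, *CRELD2*, *ATF4*, *DDIT3* and *CHAC1* were below, 5 of 10 against 21.2%, and *DNAJB9* was above, 1 of 10 against 15.9%. In MDA-MB-453, *HSP90B1*, *DDIT3*, *CHAC1* and *ASNS* were below, 4 of 10 against 15.9%, and none was above against 12.9%. In CAL51, *DNAJB9*, *DDIT3*, *TRIB3* and *CHAC1* were below, 4 of 10 against 18% of all genes, and none was above against 20.9%, although 27.9% of all genes had their highest level in CAL51. T47D had *DDIT3* and *CHAC1* above, 2 of 10 against 16.2%, and *SDF2L1* below, 1 of 10 against 11.5%, which is near the background. Without MDA-MB-415 in the reference, 2 members were below in CAL51 and 1 was above.

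The ATF4 arm and the ER lumenal genes did not keep step in every line. The median deviation of the ATF4 arm was 1.16 (MDA-MB-415), 0.87 (UACC-812), -0.16 (T47D), -1.31 (MDA-MB-453), -1.71 (SKBR3) and -1.82 (CAL51). That of the ER lumenal genes was 0.75 (MDA-MB-415), 0.08 (T47D), 0.04 (CAL51), -0.36 (UACC-812), -0.66 (MDA-MB-453) and -0.71 (SKBR3), where all genes have a median of 0 by construction. Both medians were above 0 in MDA-MB-415 and below it in SKBR3 and MDA-MB-453. The sign of the ER lumenal median in T47D, CAL51 and UACC-812, and of the ATF4 arm median in T47D, changed under at least 1 alternative. CAL51 showed the widest gap, with a difference of -1.87 log2 units between the ATF4 arm and the ER lumenal genes, and UACC-812 the widest the other way, at 1.22. Within CAL51 the gap joined *HSPA5* at 0.80 with *TRIB3* at -2.63. The ATF4 arm median without MDA-MB-415 in the reference was -0.76 in CAL51 and -0.86 in SKBR3, so its size there rests in part on that line.

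**Figure D3:**
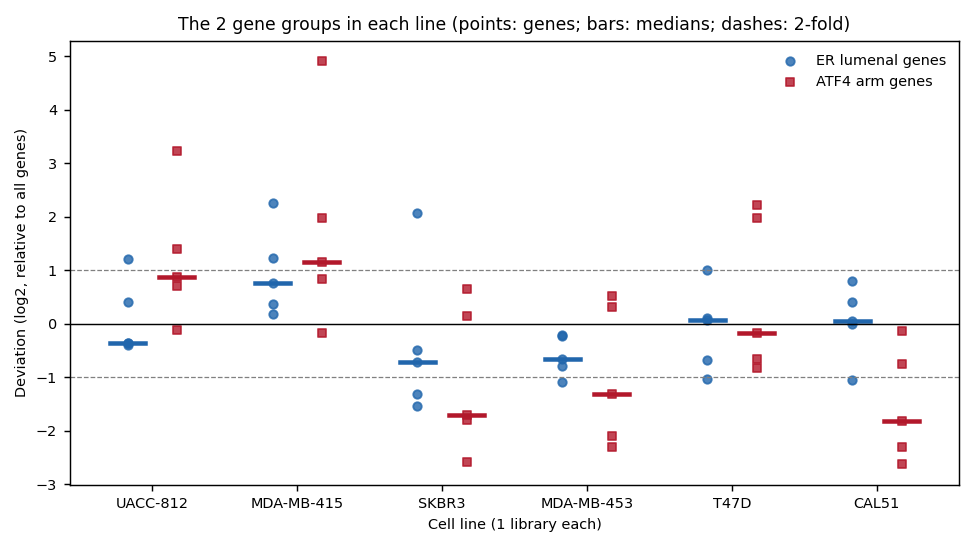
Deviation of the 5 ER lumenal genes (circles) and the 5 ATF4 arm genes (squares) in each line, in log2 units relative to all genes, with bars at the medians and dashed lines at 2-fold. The ATF4 arm median lies at -1.82 in CAL51 while the ER lumenal median lies at 0.04, and both are above 0 in MDA-MB-415.

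Both lines grown in L-15, UACC-812 and MDA-MB-415, stood above the 4 others for *SDF2L1*, *ATF4*, *TRIB3* and *CHAC1*. This was so for 4 of 10 members and 10.7% of all genes, and was noticed after the values were seen. As deposited, the lines in RPMI differed by up to 31.7-fold for *CHAC1*, 7.74-fold for *DDIT3* and 4.35-fold for *TRIB3*, but by 1.14-fold for *ASNS*. These are unscaled levels, and the TMM scaling factor was 0.66 in SKBR3, 1.12 in T47D and 1.27 in CAL51. Each of these ratios involved SKBR3, which was grown with more serum than T47D and CAL51, so they do not compare lines under shared conditions. The *CHAC1* ratio rests on the level of 0.306 in SKBR3, which would be 11.8 reads at most. MDA-MB-415, with the highest *CHAC1*, was the line for which the labels list glutathione as a supplement. This does not say whether the other media held any. The part of the medium cannot be told apart from that of the line.

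The pattern of each of 5 members was set against 14646 other genes that reached a level of 5, by the root mean square difference over the 6 lines of centred log2 values, as a description over 6 libraries. *HSPA5* was most like *TUBG1* (0.15), *VPS25* (0.17) and *DHX8* (0.18), and its nearest member was *HSP90B1* (0.44), with 260 genes nearer. *CRELD2* was most like *NFKBIA* (0.16), the gene of an NF-kB inhibitor, *KIAA1539* (0.18) and *NQO2* (0.25), with *ATF4* its nearest member (0.69). For *ASNS* the closest were *DNAJC7* (0.14), *DULLARD* (0.19) and *TMED4* (0.20), and for *TRIB3* they were *TSPAN15* (0.31), *MAP7* (0.31) and *BLCAP* (0.33). *CHAC1* was most like *EMID1* (0.42), *NBPF6* (0.48) and *RAET1G* (0.54), and its nearest member was *DDIT3* (1.23), with 274 genes nearer. No gene among these closest ones was a member.

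The sensor genes *EIF2AK3* and *ATF6* ranged over 0.71 and 1.21 log2 units, against a median range of 2.85 for the 10 members. *EIF2AK3*, the gene of PERK, lay between 158 in CAL51 and 261 in SKBR3, *ATF6* between 275 in SKBR3 and 639 in T47D, and *ERN1*, the gene of IRE1, between 41.8 in CAL51 and 120 in UACC-812. *EIF2AK4*, which encodes GCN2, ran from 473 in UACC-812 to 1336 in T47D. *XBP1*, whose mRNA is spliced by IRE1, was 34.8 in CAL51 and 387 to 846 elsewhere. *DNAJB9* was also lowest in CAL51, and *XBP1* was highest in MDA-MB-453, where *DNAJB9* was 16.7. A link between the levels of these sensor genes and those of the members was not tested. *CREB3L1*, the gene of a factor that is anchored in the ER membrane, had a level of 283 in MDA-MB-415, the other lines reaching 15.7 at most. *CREB3*, a related gene, was 71.7 and *ATF6B* 165 in SKBR3, against at least 295 and 489 in the other lines. Of 10 genes of sensors and their factors, 4 were below in CAL51 against 18% of all genes, while the 3 below in SKBR3 (21.2%), the 2 above in MDA-MB-453 (12.9%) and the 2 above in MDA-MB-415 (19.9%) were near the background.

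Other ER folding genes were above most often in MDA-MB-415, with 9 of 21 above and none below (median deviation 0.67), against 19.9% and 18.7% of all genes. In MDA-MB-453, 4 were below, near the 15.9% of all genes, and none above against 12.9% (median -0.62), and SKBR3 had the lowest level of 10 of the 21, while 29.9% of all genes were lowest in SKBR3 at a level above 0. *CALR*, the gene of the lectin chaperone calreticulin, was 11308 in MDA-MB-415, 8919 in UACC-812 and 855 in SKBR3. *SIL1*, which encodes a nucleotide exchange factor of BiP, was 424 in MDA-MB-415 and 32.5 in SKBR3. *ERO1LB*, an ER oxidase gene, was 14.9 in CAL51 and 183 in T47D, while *FKBP14*, a prolyl isomerase gene, ran the other way to most, at 187 in SKBR3 and 16.6 in UACC-812. Genes of ER-associated degradation and translocation had medians between -0.18 and 0.24, with at most 5 of 24 above, in SKBR3, and at most 4 below, in MDA-MB-453, both near the 15.9% of all genes. Among them *OS9*, a lectin of the degradation path, was 3994 in MDA-MB-415 and 305 in SKBR3, *DERL1*, a membrane component of it, 3186 in SKBR3 and at most 782 elsewhere, *SSR2* 4288 in UACC-812 and at most 1375 elsewhere, and *SRPR*, a receptor gene for the signal recognition particle, 2947 in T47D and at most 1020 elsewhere.

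Further genes of the ATF4 and CHOP pathway were split within lines. Of 21 measured, 9 were above in MDA-MB-415 against 19.9% of all genes, and 2 were below against 18.7% (median 0.74). Below were 9 in SKBR3 against 21.2% (-0.12), 9 in MDA-MB-453 against 15.9% (-0.32), 6 in T47D against 11.5% (-0.34) and 7 in CAL51 against 18% (-0.04). Above were 4 in SKBR3 against 15.9%, 1 in MDA-MB-453 against 12.9%, 3 in T47D against 16.2% and 5 in CAL51 against 20.9%. UACC-812 had 5 above against 20.6% and 3 below against 13.5% (0.28), both near the background. *NUPR1*, the gene of a stress-induced nuclear protein, was 1291 (UACC-812), 283 (MDA-MB-415), 111 (T47D), 39.7 (MDA-MB-453), 1.83 (CAL51) and 1.79 (SKBR3), with the same 3 lines at the top as for *CHAC1* and *DDIT3*. *STC2*, which encodes a secreted glycoprotein, was 2160 in T47D, 1140 in UACC-812 and 0.558 in SKBR3. *GDF15*, a stress cytokine gene, was 166 in UACC-812 and at most 14.1 elsewhere. *VLDLR*, a lipoprotein receptor gene, departed from these, at 1784 in CAL51 and at most 166 elsewhere.

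Of 13 genes that control eIF2, the inducible phosphatase subunit gene *PPP1R15A* was 39.8 at its highest, in UACC-812, and 3.78 at its lowest, in SKBR3, and its constitutive relative *PPP1R15B* 120 in UACC-812 and 17.5 in CAL51. *GCN1L1*, an activator of GCN2, was 544 in SKBR3 and at least 1408 elsewhere, and *EIF2B1*, a subunit gene of the exchange factor, ranged from 105 in SKBR3 to 397 in T47D. The list medians lay between -0.40 in MDA-MB-415 and 0.26 in T47D.

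Of 16 genes of amino acid and one-carbon synthesis, 5 were above in CAL51 against 20.9% of all genes and none below against 18%, with a median of 0.56 where that of the ATF4 arm was -1.82. In MDA-MB-415, 1 was above against 19.9% and 4 were below against 18.7%, with a median of -0.66 where that of the ATF4 arm was 1.16. The counts above in CAL51 and below in MDA-MB-415 were not far from the background. *PSAT1*, an aminotransferase gene of serine synthesis, was 938 (CAL51), 367 (SKBR3), 202 (T47D), 20.8 (MDA-MB-415) and 0.0794 (MDA-MB-453), and was listed at 0 in UACC-812. *CBS*, a gene of cysteine synthesis, was highest in MDA-MB-453 at 1097 and lowest in MDA-MB-415 at 3.18, *ALDH1L2*, of mitochondrial folate metabolism, 168 in T47D and 0.771 in MDA-MB-453, and *GLUL*, the glutamine synthetase gene, 3433 in MDA-MB-415 with 962 as the next level. Among 10 measured amino acid transporter genes, 5 were above in UACC-812 against 20.6% of all genes and none below against 13.5% (median 0.70), and 1 was above in CAL51 against 20.9% and 5 below against 18% (-1.07). *SLC7A5*, the gene of the leucine transporter LAT1, was 1290 in UACC-812 and 59.2 in MDA-MB-453, and *SLC6A9*, a glycine transporter gene, was 0.109 in CAL51 and at least 51.0 elsewhere. *SLC36A4* was listed at 0 in CAL51 and was at least 33.4 elsewhere, whereas *SLC43A1* was highest there at 34.5.

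Cytosolic tRNA synthetase genes had list medians from -0.43 in UACC-812 to 0.34 in T47D and at most 2 of 18 below in any line, where 11.5% to 21.2% of all genes were below. The tryptophanyl gene *WARS*, which interferon is known to raise, was 2519 in MDA-MB-415 with 1179 as the next level. *AARS* was 162 in SKBR3 and at least 579 elsewhere, *QARS* 627 in MDA-MB-415 and at least 1529 elsewhere, and *VARS* 533 in MDA-MB-415 and 2146 in CAL51. For comparison with stress outside the ER, 13 cytosolic heat shock genes had medians from -0.38 in SKBR3 to 0.32 in CAL51. *HSPA1A* was 1263 in MDA-MB-415, 850 in UACC-812 and 8.81 in CAL51, and *HSPA1B*, a near-identical copy whose single values are uncertain, 302, 195 and 1.67. *HSPB1* was 1601 and *BAG3* 601 in UACC-812, against at most 546 and 267 elsewhere.

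**Figure D4:**
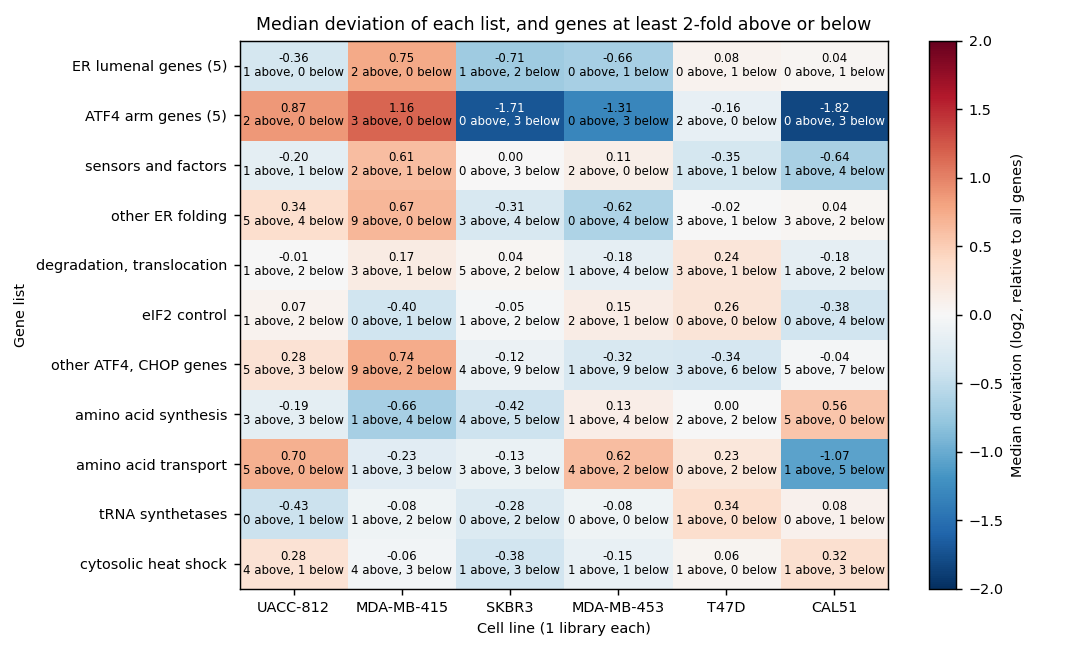
Median deviation of each gene list (rows) in each of the 6 lines (columns), in log2 units relative to all genes, with the number of its genes at least 2-fold above and below. The ATF4 arm is at -1.82 in CAL51 while amino acid synthesis genes are at 0.56 there.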

How the data were processed

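RNA of 6 cell lines, 1 library each, was prepared with the PrepX mRNA kit, per the labels' protocols. CASAVA 1.8, RSEM (no version) and hg19 are named in the submitters' processing notes, with no role or order, and annotation, strand setting and filters are not given in the sources used here. The deposited values were read as RPKM summed over exons by the authors, a unit no label states. At the recovered depth, 25.3% to 27.8% of single-exon genes with a value under 3 came out as whole reads, within 0.02, against medians of 3.43% to 4.11% over other depths. As RPKM of whole genes the values would imply 16.6 to 24.6 times the reads of a library. Depth so recovered was, in reads, 36490000 (CAL51), 33940000 (MDA-MB-453), 33710000 (SKBR3), 30190000 (MDA-MB-415), 29210000 (T47D) and 25610000 (UACC-812). In an exon of 150 bp, 3 reads gave a level of 0.548 to 0.781, which covers counting error only.

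Of 16444 rows, 22 with names turned into dates and 4 with duplicate names were left out. Deviations used a pseudocount of 1, which understates the change of low genes. Python 3.11.15 with numpy 2.4.6 was used, and the steps were checked on simulated data. With 1 library per line there was no test. The members and lists were chosen with earlier results of these data known. Named genes were the 10 members, 5 sensor genes, up to 4 genes per list that reached 5 and had the widest range, and the 3 nearest genes to each of 5 members. Alternatives were pseudocounts of 0.1 and 5, TMM and upper-quartile scaling, no all-gene correction, a correction from genes reaching 5, the mean of the others as reference, and each line left out of the reference. The deposited workbook's 3 other tables repeat rows of the main one. Promoter sequences are from RefSeq (GRCh38.p14, a later build than hg19) and were matched for all 10 members by symbol. The summed level of the leukocyte marker list is not reported here.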

Additional observations from a re-analysis of the deposited data

How the results depend on the processing

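Medians of the other gene lists were not run under the alternatives. No member deviation, and no median of the ER lumenal or ATF4 arm genes, that reached 2-fold changed sign under any alternative tried. Of 60 member deviations 13 did, and of 12 medians of the ER lumenal and ATF4 arm genes 4, all at most 0.39 in size. Those medians were the ER lumenal one in T47D, CAL51 and UACC-812 and the ATF4 arm one in T47D, which was 0.11 against the mean of the others, so their direction is not settled. Of 35 member deviations under 2-fold, 9 reached it under some alternative. Of 25 calls of a member in a line, 18 held under all 7 settings that keep every line, and 16 of these held also with each other line left out of the reference. Without the all-gene correction, no member was below in T47D and 1 was above in CAL51. With a pseudocount of 5, and against the mean of the others, no member (0) was below in T47D. Against the mean of the others, 2 members were above in SKBR3, and the ATF4 arm median was -1.05 in SKBR3 and -1.22 in CAL51. Leaving out 1 line at a time, that median ran from -1.89 to -0.86 in SKBR3 and from -2.02 to -0.76 in CAL51, and the ER lumenal median in T47D from -0.53 to 0.12. Members above ranged from 1 to 3 and below from 0 to 2 in T47D, and above from 0 to 1 and below from 2 to 4 in CAL51. The number of libraries, 1 per line, limits every comparison, and depth limits *CHAC1* in its 3 low lines. No paired analysis was possible because each line has 1 library and the lines share only the replicate number 1.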
